A study of Mus musculus with 4 samples.

Results

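Matricellular proteins are secreted glycoproteins that sit in the extracellular matrix and bind cells, growth factors and other matrix proteins, in contrast to the collagens and laminins that give the matrix its structure. They bind integrins and other receptors at the cell surface, alter adhesion and spreading, and hold or activate factors such as TGF-beta. Fibroblasts, healing wounds and remodelling tissue are rich in several of them, while fibronectin, osteopontin and SPARC are also made by early embryonic cells. The gene list examined here held 10 genes of 55401 in the deposited table: Thbs1, Thbs2, Tnc, Postn, Sparc, Spp1, Fn1, Tgfbi, Ccdc80 and C1qtnf3. These genes were chosen by family and function with the Haspin-KO against WT values of the same libraries already known, so their differences between the groups are given as a description, without a test.

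Haspin is the kinase that phosphorylates histone H3 at threonine 3 in mitosis, and RNA-seq was performed to look for genes that change in mouse embryonic stem cells (mESCs) lacking it. The cells were of the E14 line, grown in medium with serum, Lif and 2i, the pair of inhibitors that holds mESCs in the naive state, with no further treatment. Haspin-KO cells had been made from WT E14 cells by transfecting CRISPR/Cas9 plasmids with guide RNAs against the Haspin coding sequence, selecting with puromycin and picking single clones negative for the phosphorylated histone. RNA was sequenced from 2 WT and 2 Haspin-KO libraries. The labels do not name the clone behind each Haspin-KO library, and nothing in them says that libraries of a group came from separate cultures, so the spread between 2 libraries may be technical. The study passaged its mESCs on mouse embryonic fibroblasts (MEFs) and used gelatin-coated dishes for assays, and which of these held the cells taken for RNA-seq is not stated.

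The libraries held 21834847 and 17452307 counted reads in WT and 14207828 and 14436750 in Haspin-KO. Haspin itself had 875 and 619 counts in WT and 149 and 209 in Haspin-KO, a log2 fold change of -1.60 ± 0.16 (SE; edgeR quasi-likelihood test, Benjamini-Hochberg adjusted p = 0.00154). All 12 mESC marker genes examined, among them Pou5f1 and Nanog, were measured in every library. Their summed levels were 6722 to 7318 CPM (counts scaled to library size). By edgeR or DESeq2 0 were called changed. In each, 3 had an unadjusted p under 0.05 (Klf4, Tdgf1 and Dppa5a), all lower in Haspin-KO. Klf4 had a DESeq2 adjusted p of 0.0341 but a log2 fold change of -0.30, under the fold limit given below. Its edgeR adjusted p was 0.0604. Levels below are CPM scaled by edgeR's TMM factors when libraries are compared. FPKM, which divides by the exonic length of the gene, is used when genes are compared with each other. A count of 3 was taken as the floor of a library, and this floor and the counting intervals below cover counting error only. Each gene was called when its adjusted p over all 15580 genes tested was under 0.05 and its fold change was over 2.

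RefSeq promoters, 250 bases before to 50 bases after an annotated start, were found for 7 of the 10 genes. Those of 3 genes that were lower in Haspin-KO, and of Tgfbi, which was not called, are given here because the genes below part into those called lower in Haspin-KO and those not called, and the letters show what lies in front of both kinds. Sequences are 5′ to 3′ on the strand of the gene in GRCm38.p6, from chr3:54360857-54361156 (Postn, + strand), chr15:10952082-10952381 (C1qtnf3, + strand), chr4:64046966-64047265 (Tnc, - strand) and chr13:56609336-56609635 (Tgfbi, + strand). Capitals mark TATAAA, the core of the TATA box, and GGAATG, the core letters of the site bound by TEAD factors.
Postn: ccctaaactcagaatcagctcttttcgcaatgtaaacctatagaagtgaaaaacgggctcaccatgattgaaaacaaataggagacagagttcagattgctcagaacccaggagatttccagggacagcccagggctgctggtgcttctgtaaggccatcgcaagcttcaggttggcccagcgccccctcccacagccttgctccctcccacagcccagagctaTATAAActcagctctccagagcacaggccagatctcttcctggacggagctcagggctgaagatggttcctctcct
C1qtnf3: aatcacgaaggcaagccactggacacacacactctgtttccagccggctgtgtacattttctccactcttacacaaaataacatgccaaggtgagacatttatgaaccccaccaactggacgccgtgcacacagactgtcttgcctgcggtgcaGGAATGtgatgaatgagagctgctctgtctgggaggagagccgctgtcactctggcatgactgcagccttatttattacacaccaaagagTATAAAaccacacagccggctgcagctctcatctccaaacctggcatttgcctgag
Tnc: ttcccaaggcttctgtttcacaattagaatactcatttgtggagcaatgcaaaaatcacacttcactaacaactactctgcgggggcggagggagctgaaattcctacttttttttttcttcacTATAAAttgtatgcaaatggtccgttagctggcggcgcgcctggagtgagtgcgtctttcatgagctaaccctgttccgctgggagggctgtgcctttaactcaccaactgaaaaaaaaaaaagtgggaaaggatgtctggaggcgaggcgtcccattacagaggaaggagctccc
Tgfbi: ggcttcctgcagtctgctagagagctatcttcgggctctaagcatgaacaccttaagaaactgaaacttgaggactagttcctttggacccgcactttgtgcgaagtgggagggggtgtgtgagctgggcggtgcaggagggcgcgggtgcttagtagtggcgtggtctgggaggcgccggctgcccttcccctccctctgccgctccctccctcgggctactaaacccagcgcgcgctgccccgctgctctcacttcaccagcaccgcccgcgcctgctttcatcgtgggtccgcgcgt
In the sequences shown, TATAAA, searched on both strands, began 26 bases before the annotated start of Postn, 6 before that of C1qtnf3 and 126 before that of Tnc. It was present in 1 promoter or more of 5 of the 7 genes (Postn, C1qtnf3, Tnc, Thbs2 and Spp1). Counted by promoter, 6 of the 10 promoters of these 7 genes held it, against 13.6% of all 32851 RefSeq promoters of this length. Both Tnc promoters are among the 6. They overlap and hold the same site, 205 bases before the start not shown, so this site is counted more than once. The lower genes with a promoter here (Postn, C1qtnf3, Tnc and Thbs2) all held it. Among the genes not called, Spp1 carried it 211 bases before an annotated start, and Tgfbi and the Sparc promoter found had none. That Sparc promoter, chr11:55420031-55420330, lies inside the gene (chr11:55394500-55423183, - strand). The bases in front of the outer end of Sparc were therefore not searched. These few genes cannot show whether the match goes with the change, which was not tested. GGAATG was found in C1qtnf3 alone, 96 bases before its start, in 1 of the 10 promoters against 14.7% of all promoters. No member promoter held TGANTCA, the site of AP-1 factors, or a CArG box, the site of serum response factor, which occurred in 7.81% and 1.63% of all promoters. None of these 4 motifs overlapped another in the sequences shown. A match is a run of letters and was not tested as a binding site.

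Of the 10 genes, all of which passed the filter on low counts, 6 were called lower in Haspin-KO (Thbs1, Thbs2, Tnc, Postn, Ccdc80 and C1qtnf3), 0 were called higher and 4 were not called (Tgfbi, Fn1, Sparc and Spp1). Over all genes tested, 0.501% were called lower and 0.327% higher. In CPM, both Haspin-KO libraries lay below both WT libraries for 7 of the 10, the called genes and Tgfbi, and above them for 0. With 2 libraries a group such a separation was common, at 26.9% of all genes tested in the lower direction and 25.3% in the higher. The list was picked with this contrast in view, so nothing is read from these counts. The median log2 fold change of the 10 genes was -4.46, and -4.26 with the 2 genes absent from Haspin-KO placed at their bounds, while that of all genes tested was -0.0039. Together the 6 lower genes reached 148.2 and 104.5 CPM in the WT libraries but 5.71 and 4.06 CPM in the Haspin-KO libraries, which left 3.87% of the WT sum. The other 4 together reached 2154 and 2144 CPM in the WT libraries, against 2298 and 2133 CPM without Haspin.

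**Figure D1:**
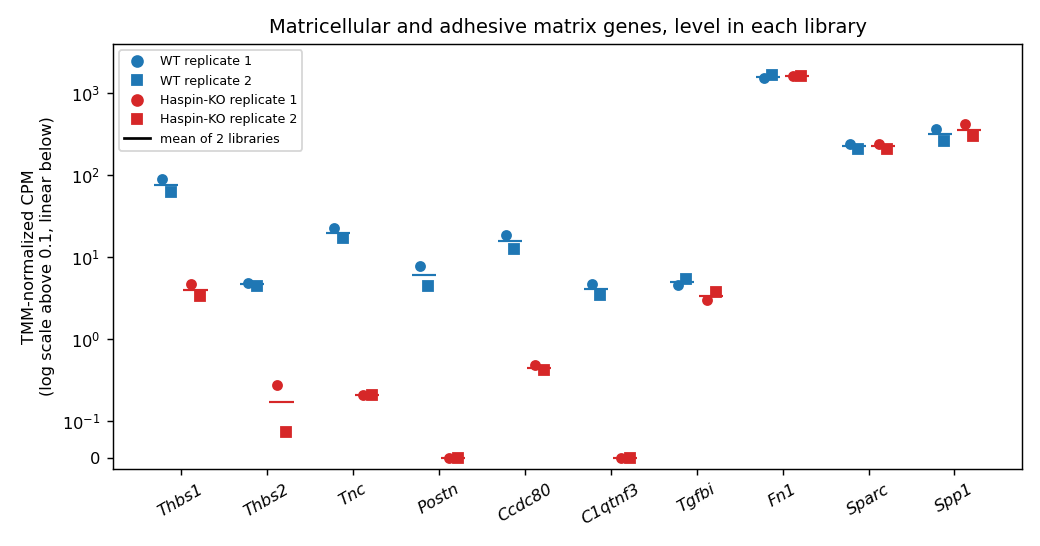
Level of each of the 10 genes in each library, in CPM on an axis that is logarithmic above 0.1 and linear below, with points for the WT and Haspin-KO libraries and short lines for the mean of 2 libraries. Fn1, Spp1 and Sparc overlap between the groups at high level, Tgfbi lies slightly lower in both Haspin-KO libraries, and the other 6 genes lie far below their WT points.

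Thbs1 (chr2:118111876-118127133, + strand) encodes thrombospondin-1, a trimeric protein that binds CD36, CD47 and integrins and can release active TGF-beta from its latent complex. It had 1953 and 1073 counts in WT against 68 and 48 in Haspin-KO, or 89.4 and 61.9 CPM against 4.73 and 3.36 CPM. The groups were far apart, with means of 75.6 ± 19.4 and 4.05 ± 0.971 CPM (SD, n = 2), 18.7-fold lower in Haspin-KO. The log2 fold change was -4.22 ± 0.22 (SE). In contrast to the other lower genes, Thbs1 stayed well above the floor in both Haspin-KO libraries. Thbs2 (chr17:14665500-14694235, - strand), its close relative, had 106 and 78 counts in WT and 4 and 1 in Haspin-KO, with means of 4.68 ± 0.249 and 0.174 ± 0.147 CPM. From these counts the level was 26.9-fold lower in Haspin-KO, with a 95% counting interval from 11.3 to 83.8. The fitted fold was 25.8 with all libraries, 60.8 without Haspin-KO replicate 1 and 16.5 without Haspin-KO replicate 2. The WT libraries agree within counting error for Thbs2, with a ratio of replicate 1 to replicate 2 of 1.08 (interval 0.797 to 1.46).

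Tnc (chr4:63959785-64047015, - strand) encodes tenascin-C, a large branched protein that weakens the adhesion of cells to fibronectin. It had 494 and 303 counts in WT but 3 in each Haspin-KO library, or 22.6 and 17.5 CPM against 0.209 and 0.210 CPM. Both Haspin-KO libraries were at the floor, and the ratio of WT to Haspin-KO from the pooled counts was 97.1 (95% counting interval 44.4 to 265.4). Postn (chr3:54361109-54391037, + strand) encodes periostin, a partner of collagen and tenascin made by periosteum and activated fibroblasts. It was counted 171 and 77 times in WT, 7.83 and 4.44 CPM, and not once in either Haspin-KO library. Against the floor of 3 counts in each Haspin-KO library it was at least 29.3-fold lower.

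Ccdc80 (chr16:45093402-45128077, + strand) encodes a secreted protein that binds heparin and matrix, and C1qtnf3 (chr15:10952332-10980150, + strand) a secreted protein with a collagen stalk and a C1q-like head. Ccdc80 had 409 and 220 counts in WT and 7 and 6 in Haspin-KO, with means of 15.7 ± 4.26 and 0.454 ± 0.0475 CPM (SD, n = 2). The pooled counts gave a ratio of 35.4 (95% counting interval 20.5 to 66.8) and the fit a log2 fold change of -5.10 ± 0.33 (SE). C1qtnf3 had 104 and 61 counts in WT and 0 in both Haspin-KO libraries, at least 19.8-fold lower against the floor. Thus Postn and C1qtnf3 were the members with no read in Haspin-KO, and at this depth their levels there could not be told from 0.

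Tgfbi (chr13:56609523-56639562, + strand), which encodes a TGF-beta-induced adhesion protein with the same kind of repeated fasciclin domains as periostin, did not follow Postn. It had 102 and 95 counts in WT and 44 and 54 in Haspin-KO, or 4.67 and 5.48 CPM against 3.06 and 3.78 CPM. The Haspin-KO libraries lay below the WT libraries, but the log2 fold change of -0.56 ± 0.23 (SE) was not called. From the pooled counts 68.1% of the WT level was left (95% counting interval 52.9 to 87.2%), well above the 1.03% of Tnc and the 5.24% of Thbs1.

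For Fn1, Spp1 and Sparc the group means differed by less than the spread between the WT libraries. Fn1 (chr1:71585520-71653200, - strand) encodes fibronectin, the main adhesive ligand of integrin alpha5 beta1. It had 33540 and 28882 counts in WT and 23385 and 23105 in Haspin-KO, with means of 1601 ± 92.4 and 1623 ± 7.05 CPM (SD, n = 2) and a log2 fold change of 0.02 ± 0.07 (SE). Both Haspin-KO values, 1628 and 1618 CPM, lay between the WT values of 1535 and 1666 CPM. Sparc (chr11:55394500-55423183, - strand) encodes a calcium- and collagen-binding protein of basement membranes. It had 243.7 and 207.1 CPM in WT and 244.3 and 211.0 CPM in Haspin-KO, a log2 fold change of 0.01 ± 0.10. In each group replicate 1 was the higher library for Sparc. Spp1 (chr5:104435118-104441050, + strand) encodes osteopontin, a phosphorylated ligand of integrins and CD44. It had 370.7 and 265.4 CPM in WT and 422.9 and 300.4 CPM in Haspin-KO, a log2 fold change of 0.18 ± 0.17. The step between replicates of Spp1, 1.40-fold in WT and 1.41-fold in Haspin-KO, was larger than the step between the group means of 318.1 ± 74.5 and 361.7 ± 86.6 CPM.

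**Figure D2:**
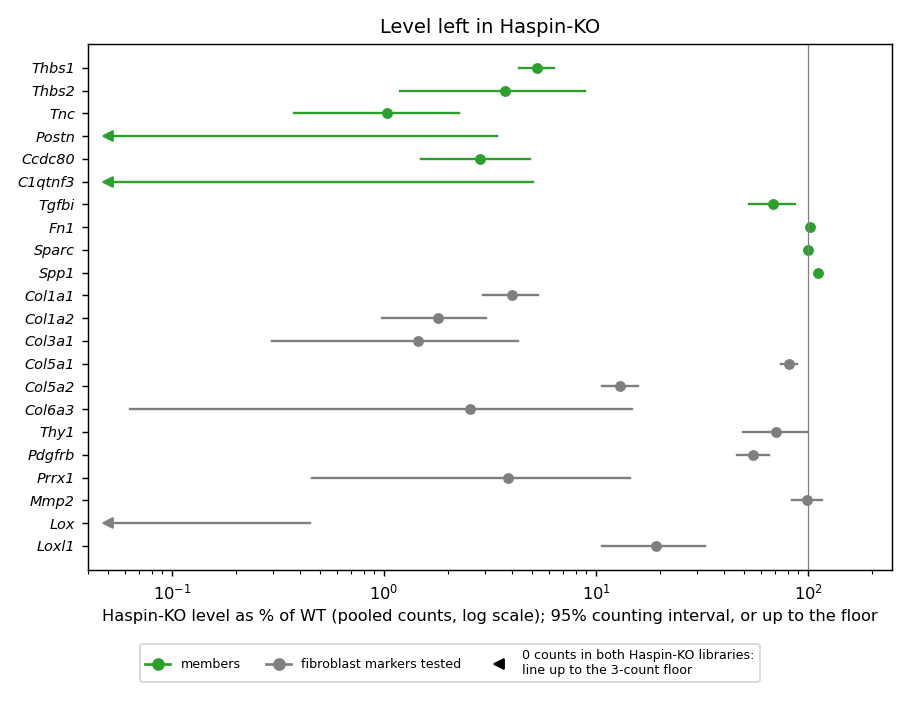
Haspin-KO level as a percentage of the WT level from pooled counts on a log axis, for the 10 genes and for the 12 fibroblast markers that were tested, with lines for 95% counting intervals. Genes with 0 counts in both Haspin-KO libraries have an arrow at the left edge and a line up to the 3-count floor, and Thbs1, Thbs2, Tnc and Ccdc80 lie between 1.03% and 5.24%.

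Compared per length, the order of the genes in WT began with Spp1 (193 FPKM, the mean of 2 libraries), Fn1 (137 FPKM) and Sparc (59.3 FPKM). Thbs1 followed at 12.4 FPKM, then Ccdc80 at 3.65, Tnc at 2.57, C1qtnf3 at 1.62, Tgfbi at 1.34, Postn at 0.705 and Thbs2 at 0.665 FPKM. The library ranges of C1qtnf3 and Tgfbi overlapped, as did those of Postn and Thbs2, so these neighbours do not differ beyond their spread. In Haspin-KO, Spp1 (220 FPKM), Fn1 (139 FPKM) and Sparc (60.1 FPKM) stayed on top, and Tgfbi at 0.905 FPKM stood next, above Thbs1 at 0.67 FPKM. Among all genes tested, Thbs1 stood at the 71.5th percentile of FPKM in WT and at the 16.5th in Haspin-KO, and Fn1 at the 98.0th and the 98.3rd. Fn1, Spp1 and Sparc together made up 93.4% and 95.1% of the CPM of the list in the WT libraries and 99.6% in each Haspin-KO library. Hence the total over the 10 genes, 2302 and 2249 CPM in WT and 2304 and 2138 CPM in Haspin-KO, differed little between the groups.

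The lower genes also differed between the WT libraries. WT replicate 1 was higher than WT replicate 2 for 6 of these 6 genes, from 1.08-fold for Thbs2 to 1.76-fold for Postn, and their sum was 1.42-fold higher. Over the 15381 tested genes with at least 20 WT counts, 50.1% were higher in WT replicate 1, the median ratio was 1.00, and 4.86% had a ratio of 1.5 or more. The counting intervals excluded a ratio of 1 for Thbs1 (1.44, interval 1.34 to 1.56), Tnc (1.29, 1.12 to 1.5), Postn (1.76, 1.34 to 2.34) and Ccdc80 (1.48, 1.25 to 1.75), and they included it for Thbs2 and for C1qtnf3 (1.35, 0.977 to 1.89). Of the other genes, Spp1 and Sparc were higher in replicate 1 of both groups, whereas Fn1 was lower in WT replicate 1 (ratio 0.922, interval 0.907 to 0.936) and level in Haspin-KO (1.01, 0.988 to 1.02). In Haspin-KO only Thbs1 had enough reads among the lower genes to be compared, with a ratio of 1.41 whose interval of 0.959 to 2.08 included 1. For each lower gene both WT libraries stood above both Haspin-KO libraries, as they did for 26.9% of all genes tested. The step between the WT libraries was at most 1.76-fold (Postn), while the smallest fold between the groups was 18.7 (Thbs1). The lower genes were called by their fold in this same contrast, so these folds are a description and nothing is read from them.

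**Figure D3:**
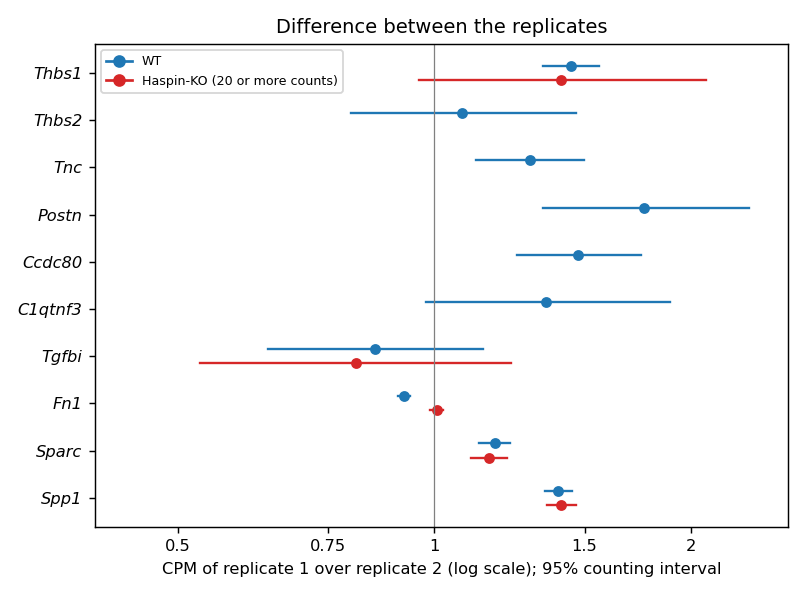
Ratio of replicate 1 to replicate 2 in CPM on a log axis for each of the 10 genes in WT, and in Haspin-KO for genes with at least 20 counts there, with 95% counting intervals as lines and a ratio of 1 marked. The WT points of the 6 lower genes lie between 1.08 and 1.76, and those of Tgfbi and Fn1 lie below 1.

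Because MEFs are part of the culture, fibroblast markers were read in the same libraries. In bulk RNA, fewer cells of one type cannot be told apart from less RNA of these genes per cell. Of 16 fibroblast markers, 12 were tested. By edgeR 8 (66.7%) were called lower and 0 higher, against 0.501% and 0.327% of all genes tested. Those called were Col1a1, Col1a2, Col3a1, Col5a2, Col6a3, Prrx1, Lox and Loxl1, and the tested markers had a median log2 fold change of -3.74. All 16 markers summed to 247.2 and 185.8 CPM in WT and 55.4 and 50.4 CPM in Haspin-KO, which left 24.4% of the WT sum. The sum was 1.33-fold higher in WT replicate 1 than in WT replicate 2. Col1a1, a chain of type I collagen, had 1063 and 575 counts in WT and 24 in each Haspin-KO library. Lox, the enzyme that crosslinks collagen, had 1215 and 657 counts in WT and 0 in both Haspin-KO libraries. Not all of the list was called. Lum, a proteoglycan of fibroblasts, was at 0 in all 4 libraries. Dcn had 4 and 2 counts in WT and 0 in Haspin-KO, and Fap and Twist2 had at most 3 counts in any library. These were at or near the floor in WT and were not tested, so a fall in them could not be seen. Mmp2, Thy1 and Col5a1 were not called. Pdgfrb was not called either, with an edgeR adjusted p of 0.0392 but a log2 fold change of -0.85 ± 0.18 (SE), under the fold limit. When either WT library was left out, 5 of the fibroblast markers were called lower in place of 8. The part of fibroblast RNA in the levels of the matricellular genes was not tested.

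Markers of other cells were also read. Of 8 smooth muscle markers, 3 (37.5%) were called lower (Acta2, Tagln and Cnn1), against 0.501% of all genes tested. The sum over the 8 markers went from 144.3 and 124.7 CPM in WT to 62.4 and 69.4 CPM in Haspin-KO. Without WT replicate 1 the call remained for Acta2 alone, and without WT replicate 2 for Acta2 and Cnn1. DESeq2 called Acta2 alone, with 3 of the 8 having no adjusted p. In edgeR 0 of 12 tested markers of extraembryonic endoderm, a cell type rich in Sparc and Fn1, 0 of 4 of early mesoderm and 0 of 1 of macrophages were called, while 4 endoderm markers (Lama1, Col4a1, Col4a2 and Cubn), 1 mesoderm marker (T) and 0 macrophage markers had an unadjusted p under 0.05 in edgeR. Col4a1, a chain of type IV collagen, had an edgeR adjusted p of 0.0359 but a log2 fold change of 0.40 ± 0.08 (SE), under the fold limit. Cubn, an endocytic receptor with 15 and 10 counts in WT and 32 and 15 in Haspin-KO, was called higher when Haspin-KO replicate 2 was left out and in the fit blocked by replicate number. DESeq2 called 0 of each list, with 2 endoderm, 1 mesoderm and 0 macrophage markers past an unadjusted p of 0.05. Of the macrophage markers Ptprc, Adgre1, Lyz2 and Tyrobp were at 0 in all 4 libraries. The part of these cell types was not tested.

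The genes whose profile over the 4 libraries lay nearest to the mean profile of the 6 lower genes were Col8a1, Col3a1, Col1a1, Col1a2 and Fbln2. The measure was the Euclidean distance between log2 CPM values centred on each gene's mean, which was 0.331 for Col8a1, 0.446 for Col3a1, 0.531 for Col1a1, 0.549 for Col1a2 and 0.572 for Fbln2. The median over the genes tested was 4.99, and the lower genes themselves lay between 0.233 (Ccdc80) and 1.04 (Thbs2) from their own mean. Col8a1, a short-chain collagen, had 78 and 43 counts in WT and 0 in both Haspin-KO libraries, and Fbln2, which encodes the matrix glycoprotein fibulin-2, had 808 and 429 against 19 and 8. All of these except Fbln2 encode collagen chains, and likeness over 4 libraries that fall into 2 groups follows the change between the groups.

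Other matricellular families were read beside these genes. Of 34 relatives (further thrombospondins, tenascins, SPARC-like, CCN and C1q/TNF-related genes and others), 18 were tested, 2 (11.1%) were called lower, against 0.501% of all genes tested, and 0 higher, with 2 higher past an unadjusted p of 0.05 in edgeR. Their median log2 fold change was -0.0011. Both belonged to the CCN family of secreted matrix-bound proteins. Ccn4 had 84 and 58 counts in WT and 20 and 16 in Haspin-KO, a log2 fold change of -1.51 ± 0.30 (SE; edgeR adjusted p = 0.0332). Ccn5 had 46 and 26 counts in WT and 0 in both Haspin-KO libraries, at least 8.60-fold lower against the floor (edgeR adjusted p = 0.00777). Without WT replicate 1 neither was called, and without WT replicate 2 Ccn5 alone was. DESeq2 called 0 of the relatives, giving Ccn4 an adjusted p of 0.0701 and Ccn5 none, with 4 (Ccn4, Ccn5, Smoc1 and Ccn1) past an unadjusted p of 0.05. Fstl1, a secreted SPARC-like glycoprotein, was the most abundant relative at 27.8 FPKM in WT and 27.6 FPKM in Haspin-KO. Ccn2, a widely used target of YAP and TGF-beta signalling, had a log2 fold change of -0.19 ± 0.10 and was not called (edgeR adjusted p = 0.314). Ccn1, its relative with the same use, had 0.39 ± 0.13 (edgeR adjusted p = 0.130).

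Receptors of these proteins were read next. Of 21 receptor genes 17 were tested, and 1 (5.88%) was called lower and 1 higher, against 0.501% and 0.327% of all genes tested, with a median log2 fold change of 0.11. Cd44, a receptor of hyaluronan and osteopontin, had 161 and 96 counts in WT and 25 and 5 in Haspin-KO, a log2 fold change of -2.62 ± 0.46 (SE; edgeR adjusted p = 0.0216). The ratio between its Haspin-KO libraries was larger than that between its WT libraries, yet both lay below them. Itga8, the alpha8 subunit of an integrin that binds RGD-containing matrix proteins, had 26 and 23 counts in WT and 67 and 51 in Haspin-KO, a log2 fold change of 1.71 ± 0.30 (SE; edgeR adjusted p = 0.0216). When either WT library was left out, neither gene was called. Calr, which encodes calreticulin, a chaperone that also takes part in thrombospondin signalling at the cell surface, was the most abundant of the list at 335 FPKM in WT and 338 FPKM in Haspin-KO. The fibronectin receptor subunits Itgb1 and Itga5 had log2 fold changes of 0.08 and -0.09 and were not called. Cd36, Itgb6 and Itgb8 were at 0 in all 4 libraries, so of the thrombospondin receptors CD36 was not detectable at this depth, while Cd47 had 262 and 216 counts in WT and 169 and 178 in Haspin-KO.

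Genes linked to TGF-beta and YAP, which act upstream of several matricellular genes, were read last. Of 24 genes, all tested, 2 (8.33%) were called lower, against 0.501% of all genes tested, and 0 higher, with 5 higher past an unadjusted p of 0.05 in edgeR. Their median log2 fold change was -0.02. Ltbp2, a fibrillin-like matrix protein of the latent TGF-beta binding family, had 473 and 240 counts in WT and 29 and 17 in Haspin-KO, a log2 fold change of -3.47 ± 0.30 (SE; edgeR adjusted p = 0.000675). It was higher in WT replicate 1 than in WT replicate 2, as were the lower matricellular genes. Tgfb3, a TGF-beta ligand, was low throughout, with 22 and 13 counts in WT and 1 and 0 in Haspin-KO, a log2 fold change of -4.40 ± 0.86 (SE; edgeR adjusted p = 0.0329), and it was not called when either WT library or Haspin-KO replicate 2 was left out. DESeq2 called Ltbp2 and gave Tgfb3 no adjusted p. Ltbp3 had 56 and 40 counts in WT and 13 and 11 in Haspin-KO. Its log2 fold change of -1.53 ± 0.34 (SE) was not called (edgeR adjusted p = 0.0511). It was called lower with no filter, with at least 10 counts in every library and in the fit blocked by replicate number. DESeq2 gave it no adjusted p. The receptors Tgfbr1 and Tgfbr2, the Smads examined, Yap1, Wwtr1 and the 4 TEAD genes were not called.

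**Figure D4:**
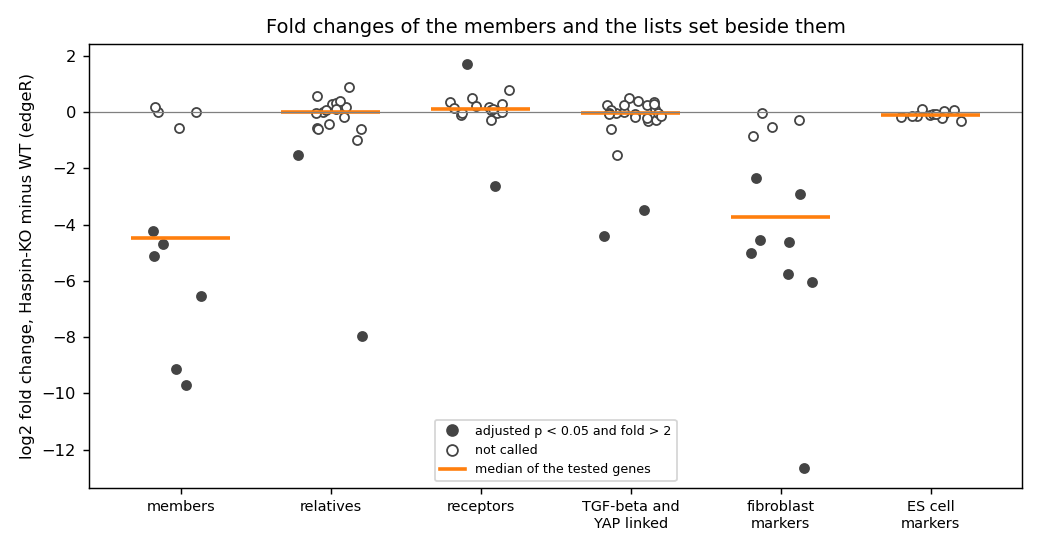
Fitted log2 fold change, Haspin-KO against WT, of each tested gene in the 10-gene list and in the lists of relatives, receptors, TGF-beta and YAP linked genes, fibroblast markers and mESC markers, with called genes filled, lines for the median of each list, and fitted values of genes with 0 counts in Haspin-KO depending on the prior count. The relatives, receptors and TGF-beta and YAP linked genes centre near 0, at medians of -0.0011, 0.11 and -0.02, and the fibroblast markers at -3.74.

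The annotation in the deposited table gave the 10 genes several shared terms, in part a matter of course since they were chosen by function. Basement membrane was listed for 6 of them (Thbs2, Tnc, Tgfbi, Fn1, Sparc and Ccdc80), against 0.50% of the tested genes with a cellular component term. Heparin binding was listed for 5 (Thbs1, Thbs2, Postn, Fn1 and Ccdc80), against 0.804%, and calcium ion binding for 4 (Thbs1, Thbs2, Tnc and Sparc), against 3.82%. Extracellular matrix organization was listed for 4 (Postn, Tgfbi, Fn1 and Ccdc80), against 0.51%, and extracellular space for 5 (Tnc, Tgfbi, Sparc, Spp1 and C1qtnf3), against 3.25%. Each of these terms held lower genes and genes that were not called. The ECM-receptor interaction pathway was listed for Thbs1, Thbs2, Tnc, Fn1 and Spp1, against 0.932% of the tested genes with a pathway. The same 5 genes were listed under focal adhesion (2.75%), PI3K-Akt signaling (4.45%) and human papillomavirus infection (4.39%). The start and end of all 10 genes equal those of the GENCODE M21 annotation of GRCm38. Exons of 4 of them overlap another gene, with Gm29233 opposite Thbs1, 8030451A03Rik opposite Tnc, Apol7d opposite Fn1 and Gm42793 on the strand of Spp1. Those overlapping genes had at most 18 counts in any library, and since the counting by strand is not stated, reads of the overlapped bases cannot be assigned to either gene.

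All 6 lower genes were called by DESeq2 as well. When at least 10 counts were required in every library, 5 of the 10 genes were tested and Thbs1 alone was called. With each of the 4 libraries left out in turn, the median log2 fold change of the 10 genes ran from -4.85 to -4.02. The list was picked with this contrast in view, so these repeats are a description. Limma on log2(FPKM + 0.1) called 0 of the 10 and 0 of all genes, with 6 of the 10 past an unadjusted p of 0.05.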

How the data were processed

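RNA from WT and Haspin-KO E14 mESCs was extracted with TRIzol and made into libraries with an mRNA-seq kit. The authors trimmed reads with Cutadapt (1.9.1), mapped them to mm10 with HISAT2 (2.0.1) and, per the submitters' processing notes, counted them with HTSeq (0.6.1). They deposited raw counts per gene and FPKM values, in which counts are scaled by exonic length and library total. Strand setting, multi-mapping reads and annotation release are not given in the sources used here. DESeq2 is among the tools the notes name, and the authors' own comparisons were not used.

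The groups were compared with edgeR (4.0.16) in R (4.3.3) by the quasi-likelihood test on counts, with filterByExpr, TMM and no block, and Benjamini-Hochberg adjustment over 15580 genes. SE was taken as the absolute log2 fold change over the root of the F statistic. Counting intervals are exact binomial, at 95%. Tests were run on simulated data first. The members and the comparison lists were chosen with earlier results of these data known. Named were all members, the called genes of the other lists or up to 3 of their most abundant, markers needed for the label check, terms held by at least 4 members, and the 5 nearest profiles. Genes named outside that rule (Smoc1, Cd47, Ltbp3, uncalled factors and uncalled markers) were picked with their values known. Protein sequences were not analysed here, and a gene planned for the TGF-beta and YAP linked list is not reported here. As alternatives, TMM was replaced by the size factors of DESeq2 or by library totals, and the others were no filter, at least 10 counts in every library, DESeq2 (1.42.0), limma (3.58.1) on log2(FPKM + 0.1) or log2(FPKM + 1) for genes with at least 0.5 FPKM in at least 2 libraries, thinning, the replicate number as a block, and each library left out. A group left with 1 library is assumed to vary like the other.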

Additional observations from a re-analysis of the deposited data

How the results depend on the processing

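The 6 lower members were called with other size factors, no filter, thinning, DESeq2 and with each library left out. A minimum of 10 counts in every library left 5 members tested and 1 called, with a median log2 fold change of 0.015, since the genes nearest 0 in Haspin-KO were removed. That filter left relatives at 1, receptors at 0 lower and fibroblast markers at 2. DESeq2 called 0 relatives, 5 fibroblast markers and 1 TGF-beta and YAP linked gene. It gave no adjusted p to 10 of 18 relatives, 3 of 24 TGF-beta and YAP linked genes and 3 of 12 fibroblast markers. Those 3 markers, Col6a3, Prrx1 and Loxl1, were called by edgeR. Limma called 0 of every list with either pseudocount, the smallest adjusted p over all genes being 0.0697 and 0.0776, and gave member medians of -2.79 and -0.73; 6 members passed an unadjusted p of 0.05 with either pseudocount. Leaving out 1 library gave 0 to 2 relatives, 0 to 1 receptors in each direction, 1 to 3 TGF-beta and YAP linked genes, 5 to 8 fibroblast markers and member medians of -4.85 to -4.02. The causes were not tested. Among all genes, called against 78 lower and 51 higher, the counts were 140 and 125 without a filter, 36 and 52 with at least 10 counts, 45 and 47 in DESeq2 and 37 to 150 and 17 to 157 with 1 library left out.

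With the replicate number as a block, 6 members, 2 relatives, 1 receptor in each direction, 3 TGF-beta and YAP linked genes and 8 fibroblast markers were called, and 167 lower and 240 higher genes in all. The 2 pairs share only a number (correlation of replicate differences across genes 0.289). Low counts in Haspin-KO limit the folds of Thbs2, Tnc, Postn, Ccdc80 and C1qtnf3.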
